A study of Drosophila melanogaster with 2 samples.

Results

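The fly zinc-finger protein D19B had 255 binding peaks whose summit, the base of greatest enrichment, lay 1 to 500 bp downstream of the nearest transcription start site (TSS) of a gene. They were 5.92% of the 4309 peaks in the authors' reproducible list. Position was measured in the direction of the gene, over all annotated TSSs except those of transposable elements. In the whole list 369 summits met that distance, and 114 of them were left out because they lay within 500 bp of a TSS of a divergent pair, that is, of 2 coding genes that start at most 500 bp apart and are transcribed away from each other. The 255 summits fell in 252 regions and at 245 TSSs of 241 genes. Of the other peaks, 1175 had their summit 0 to 500 bp upstream of a TSS outside such pairs, 493 lay at divergent pairs, and 2386 lay farther from any TSS.

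The peaks came from chromatin immunoprecipitation with sequencing (ChIP-seq) of whole Drosophila melanogaster embryos, sexes mixed, aged 0 to 24 h. All embryos belonged to 1 transgenic D19B-GFP line, in which green fluorescent protein is fused to the C terminus of D19B, and an antibody against GFP was used for the precipitation. The 2 libraries, biological replicates 2 and 3 in the labels, form a single group, and the control library was not analysed here. Sonicated chromatin measured 200 to 800 bp, embryos of all stages and cell types were mixed, and the peaks describe the tagged protein of this one line. A single group allows no comparison between groups, and differences between sets of peaks are given as counts and medians without a test.

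RNA polymerase II starts at the TSS, and in flies it often pauses shortly after it. The transcribed stretch that follows usually holds the 5′ untranslated region (UTR), the start of the coding sequence or the first intron, and it can carry core promoter elements, the first nucleosome and intronic enhancers. D19B carries C2H2 zinc fingers, a fold that commonly binds DNA, and proteins of this type can be found at promoters, enhancers or boundaries between chromosomal domains. Many fly genes have several TSSs, so a base downstream of one start may lie upstream of another or inside a longer transcript of the same gene.

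The sequences below show DNA at or near the summits. They are printed because the word AGGGTA, with its longer forms, was in a minority of the members and rare in the DNA around them. Most of the tallest members lacked it. Stretches printed for a word are centred on the word and not on the summit, and the summit base may lie outside them. All are from release 6 of the genome (dm6 coordinates), 5′ to 3′, on the strand named. The first group holds 3 of the 4 members that carry ACAGGGTA, with that word in capitals, taken from chr3L:15116959-15116988, chr3L:22724701-22724730 and chr3R:13815700-13815729, all on the minus strand.
Cep135: aaattaatattACAGGGTAtgaatattacc
mael: cttcatttattACAGGGTAgatccgcagca
lncRNA:CR43641: ggattcattttACAGGGTAttcagagtttc
The second group holds members with AGGGTAT, in capitals, from chr2L:2192124-2192153, chrX:16656146-16656175, chr2L:10388554-10388583 and chr3L:9511246-9511275, all on the plus strand.
CG10874: agcagaatcccAGGGTATcttacattcgga
r: atttaaaatcgAGGGTATgcacgcgctctg
da: tatttcggtgcAGGGTATgttttctagccg
RpS9: cgagaagaccgAGGGTATgcggccgttcac
The third group gives the 30 bases at the summit of tall members, on the gene's strand, from chr3R:31404656-31404685 (minus), chr2L:1185762-1185791 (plus) and chr3R:4378711-4378740 (plus). Sfxn1-3 has AGGGTA, in capitals.
PNPase: tccaagtctcaagaaacgtacagggctttt
CG5001: gtaggttagtctatcataccccatagcagg
Sfxn1-3: ttatttaatattttaaAGGGTAgtttccaa

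The members were not spread evenly over the 500 bp. Their median position was 209 bp downstream, with quartiles of 80.5 and 377.5 bp and a range of 2 to 500 bp. The first 100 bp held 76 summits (29.8%), and the following steps of 100 bp held 48, 33, 45 and 53. If every base that meets the rule were counted, 8081662 bases in all, the same steps would hold 22.2%, 20.7%, 19.7%, 19% and 18.4%. Counts were thus highest next to the TSS, lowest in the middle of the window and higher again at its far end. In steps of 50 bp the counts went from 42 next to the TSS to 15 at over 250 to 300 bp and 30 at 401 to 450 bp.

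**Figure D1:**
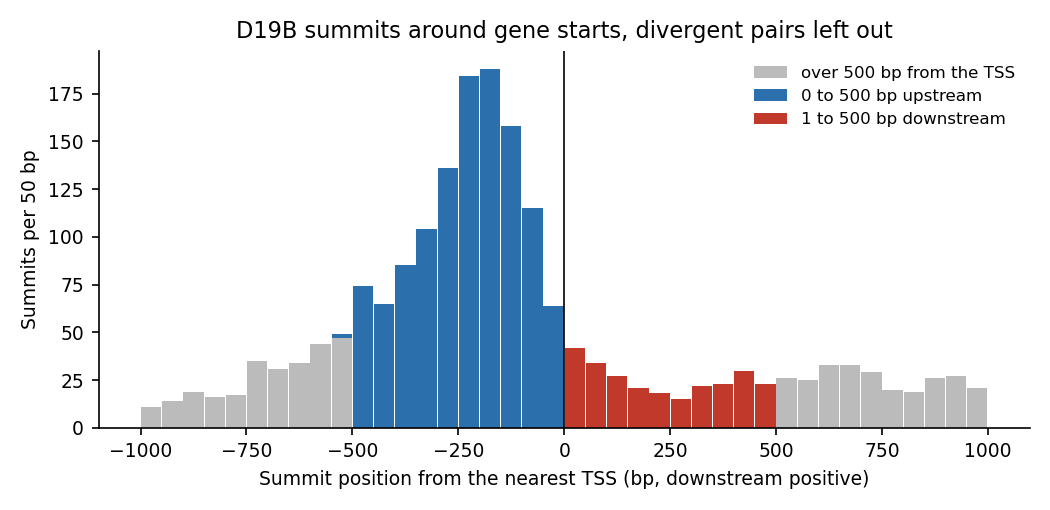
Number of D19B summits per 50 bp (y axis) by distance from the nearest TSS (x axis, bp, downstream positive), with peaks at divergent pairs left out. The 255 members (red) continue the falling edge of the upstream peaks (blue), which reach 188 per 50 bp, and meet the flat level of the summits beyond 500 bp (grey).

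At the near limit the members closest to the TSS were those of CG42748 at 2 bp and of Ufsp1 and CG3777 at 3 bp, with signals of 155.0, 306.8 and 126.3. Just outside it lay peaks of Ten-a at 1 bp upstream and of CG32017 and CG13255 at 3 bp upstream, with signals of 145.2, 148.8 and 136.5. Near the far limit stood hng3 at 500 bp, lncRNA:CR44758 at 492 bp and CG18622 at 491 bp, with signals of 148.6, 400.5 and 410.6. Beyond it the nearest were lncRNA:CR44363 at 503 bp and Pcyt1 and CG3408 at 509 bp, with signals of 218.5, 215.1 and 195.1. The distances on both sides of each limit were far smaller than the chromatin fragments, and the rule alone parts these peaks.

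Members had the height of an ordinary D19B peak. The signal is the authors' own value for each peak, and it was used only to rank and describe peaks within a list. Its median over the members was 199.9 (quartiles 144.8 and 301.7, range 117.3 to 2468), against 199.5 over all peaks. Peaks upstream of single-direction TSSs had a median of 224.4 (quartiles 156.8 and 401.3). Of the members, 19 (7.45%, 95% interval 4.55 to 11.4) were among the 430 tallest peaks of the list, and of the upstream peaks 182 (15.5%) were. The intervals here are exact binomial ones and cover counting error only. Over the 5 steps of 100 bp the median signal was 179.4, 204.8, 238.2, 194.3 and 221.1, with no steady order by distance.

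The 20 tallest members were 12 at coding genes, 6 at long non-coding or antisense RNA genes and 2 at snoRNA genes. The highest lay in exon 1 of lncRNA:CR45677 on 3L, 456 bp downstream of the TSS at position 20395851. Its signal was 2468 in the joint list, 1873 in replicate 2 and 596.5 in replicate 3. It ranked 30 among all peaks. Next came PNPase, the mitochondrial polynucleotide phosphorylase, with a summit in the 5′ UTR at position 31404671 of 3R, 69 bp past an internal TSS. PNPase had a signal of 1938, with 1244 in replicate 2 and 701.1 in replicate 3. The third, CG5001, had its summit at 1185777 of 2L, 20 bp into a 5′ UTR, and a signal of 1710.0, with 1186 and 527.0 in replicates 2 and 3. In both libraries these 3 peaks had values well above the median member, and the value in replicate 2 was the higher one each time.

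Below them stood ogre, an innexin of gap junctions, in its first intron at 265 bp, at position 6985403 of X. Its signal was 1229.9, with nearly equal values of 648.6 in replicate 2 and 600.0 in replicate 3. Sfxn1-3, a sideroflexin of the mitochondrial membrane, had 999.1 in its 5′ UTR at 126 bp (705.8 and 298.8 in replicates 2 and 3). GstE13, a glutathione S-transferase, had 846.2 at 80 bp (584.5 and 259.1). These genes encode proteins with unrelated roles. The transcription factor gene bowl, of the odd-skipped family, had 791.5 at 281 bp (569.2 and 216.2). The elongation factor gene eEF1beta had 718.4 in its first intron at 228 bp, with 387.2 in replicate 2 and 330.0 in replicate 3. Together with ogre it was among the few tall members with like values in both libraries. The collagen IV chain gene vkg had 681.6 in intron 1 (491.6 and 190.7). CG31612 had 696.8 (448.9 and 240.8), and the junction scaffold gene dlg1 had 609.4 (388.1 and 221.1), both in intron 1.

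Most members had a nearby summit in each library alone. The authors' reproducible list was itself made from these 2 libraries, so such a summit is no independent repeat of the peak. A summit within 100 bp was present in both libraries for 205 members (80.4%, 95% interval 75 to 85.1), beside 86.7% of all peaks, 85.7% of the upstream ones, 78.9% of those at divergent pairs and 89.4% of those farther from a TSS. Replicate 2 held a summit for 241 members and replicate 3 for 217. In 36 cases it was in replicate 2 only, in 12 in replicate 3 only, and for brwl and skd in neither. The members in both libraries had a median signal of 215.3, and those in replicate 2 only and in replicate 3 only had medians of 151.2 and 156.1.

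The signal was higher in replicate 2 for 189 of the 205 members found in both. The median ratio of replicate 2 to replicate 3 was 1.93 (quartiles 1.45 and 2.66), and over all peaks it was 1.91. The lists are not scaled between libraries, so this ratio is no difference in binding. The members with the higher value in replicate 3 included lncRNA:CR43751, with 46.6 in replicate 2 and 222.7 in replicate 3, and ph-p, with 237.5 and 258.1. The former was chosen after its values were seen, as the one farthest from the rest.

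**Figure D2:**
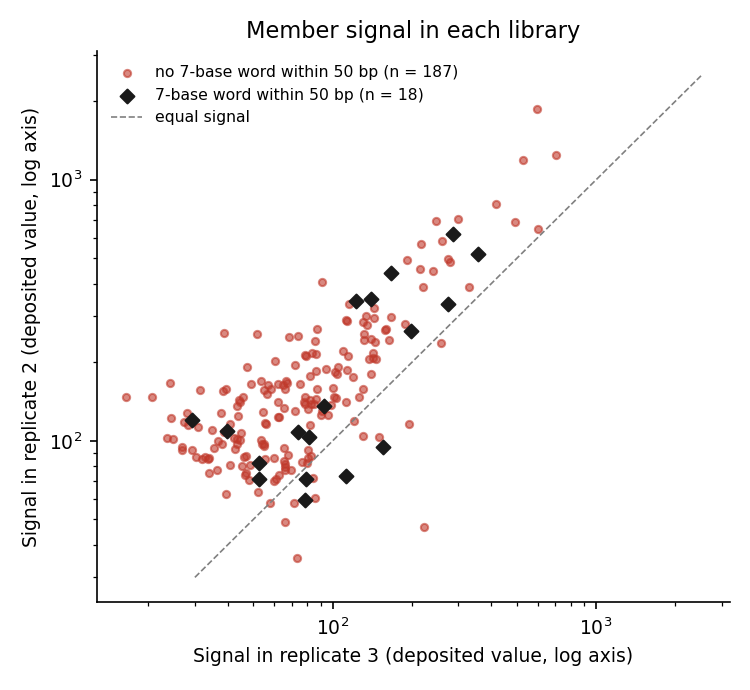
Deposited signal of the 205 members found in both libraries, replicate 3 on the x axis and replicate 2 on the y axis, both logarithmic. Diamonds mark the 18 members with the 7-base word AGGGTAT within 50 bp of the summit, and 189 points lie above the dashed line of equal signal.

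Position was also compared between the libraries, for library summits matched within 100 bp of the member's summit. That limit holds each library position near the joint one, so larger shifts were not counted here. Of the 205 members in both libraries, 180 (87.8%) were downstream of the same TSS in each, which is 70.6% of all members. In replicate 2 alone 230 of 241 summits stayed 1 to 500 bp downstream of that TSS, and 7 moved to its upstream side. In replicate 3 it was 197 of 217, with 8 upstream. The libraries' summits were a median of 27.0 bp apart (quartiles 10 and 49). Members in the first 100 bp kept to the same TSS in both libraries in 44 of 76 cases (57.9%), those at over 200 to 300 bp in 29 of 33 (87.9%), and those at 401 to 500 bp in 35 of 53 (66.0%). This count takes as lost any summit that is missing from a library or that crosses a limit of the rule at the same TSS, and summits near 0 or 500 bp have the least room before a limit. The nearest TSS itself was another one for 2 of the 241 summits in replicate 2 and 5 of the 217 in replicate 3.

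The tallest member without a summit in replicate 3 was Mer, the Merlin tumour suppressor gene, with 351.5 in the joint list and 228.0 in replicate 2. In replicate 3 a region of signal 28.6 overlapped it, with its nearest summit 216 bp away. For lncRNA:CR45364, with 345.1 in the joint list, the replicate 3 summit lay just past the 100 bp limit for a match. The heat-shock RNA gene lncRNA:Hsromega had 329.2, with 272.9 in replicate 2 and a replicate 3 summit 133 bp away. A miss in a library thus included overlapping regions whose summit lay past the 100 bp limit. Of the 36 members in replicate 2 only, 11 (30.6%) overlapped a region of both libraries. Among the 12 in replicate 3 only, that number was 7 (58.3%). For scny (300.8) and da (257.7) no region of replicate 3 overlapped, and replicate 2 gave 199.5 and 189.7. The gene da encodes the bHLH protein Daughterless.

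Among members in replicate 3 only, lncRNA:CR43836 had 295.0 in the joint list and 171.0 in replicate 3, and lncRNA:CR44739 had 221.1 and 151.1. The next were side-V (200.0 and 102.5), the septin gene pnut (162.4 and 70.2) and tRNA:Ile-AAT-1-3 (162.0 and 43.7). No replicate 2 region overlapped the members at the 2 lncRNA genes and pnut. At brwl, with a joint signal of 199.9, both libraries had a taller overlapping region, of 516.8 and 289.0, whose summits were 168 and 175 bp away. That member stood beside a peak of 803.8 upstream of the same TSS. At skd (134.4) the overlapping regions had 97.0 and 26.7.

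By annotation, the summits sat in leader and intron sequence and seldom in coding sequence. The 5′ UTR held 114 summits (44.7%), introns 86 (33.7%), exons of non-coding transcripts 42 (16.5%) and coding exons 9 (3.53%), with 3 intergenic and 1 in a 3′ UTR. Of the bases that meet the rule, 30.7% were 5′ UTR, 20% intron, 13.0% exon of non-coding transcripts and 33.0% coding exon. The coding exon share of the members was below that of the bases at every distance. It was 1 of 76 summits (1.32%) against 14.4% of bases in the first 100 bp, 4 of 33 (12.1%) against 38.5% at over 200 to 300 bp, and 1 of 53 (1.89%) against 41.5% at 401 to 500 bp. The 5′ UTR share was 72.4% in the first 100 bp and 15.1% in the last, beside 62.9% and 11.1% of the bases. Introns went the other way, with 7.89% in the first and 64.2% in the last step, beside 4.41% and 30.8% of the bases.

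**Figure D3:**
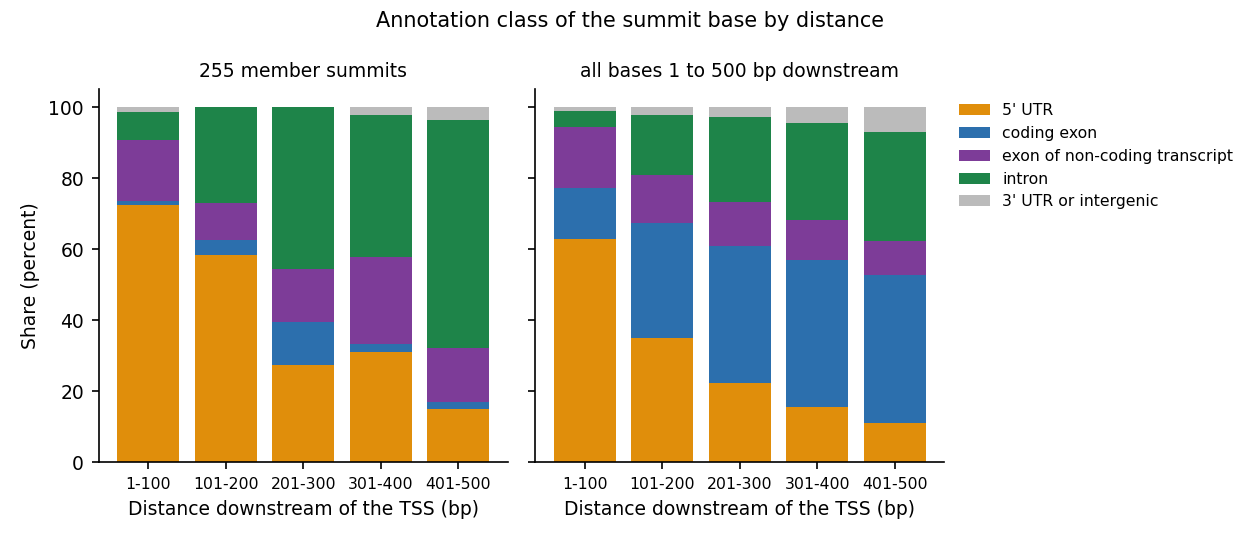
Share in percent (y axis) of each annotation class by distance downstream of the TSS (x axis, steps of 100 bp), for the 255 member summits (left) and for every base that meets the rule (right). Coding exon (blue) takes 1.32% to 12.1% of the summits per step and 14.4% to 41.5% of the bases.

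In the transcripts that begin at the TSS, 157 summits lay in exon 1, 80 in intron 1, 6 in exon 2, 2 in intron 2 and 10 past the end of a short transcript. Of the 197 members at protein-coding genes, 166 (84.3%) were upstream of the start codon. From TSS to start codon the median genomic distance, introns included, was 750.5 bp (quartiles 256.2 and 2078) over 188 coding TSSs with a member, 418.0 bp over 1019 coding TSSs with an upstream peak, and 184.0 bp (quartiles 72.0 and 867.0) over 14870 coding TSSs away from divergent pairs. The start codon was over 500 bp away at 59.0%, 46.4% and 32.3% of them. A first intron began within 500 bp at 152 of the 188 (80.9%), at 74.5% of those with an upstream peak and at 69.9% of all. The median length of the member genes was 5584 bp, with 2271 bp for all and 5577 bp for genes with an upstream peak. These lengths were compared after the data were seen.

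Tall intron members were ogre, eEF1beta, CG31612 and vkg, described above, and one past the end of snoRNA:Or-CD13, which lies inside egr on the other strand. The latter had 904.0, with 620.9 in replicate 2 and 286.1 in replicate 3. The summit window of vkg, a basement membrane gene, was rich in A and T, with 24.8% G or C, and that of ogre had the same value. The windows of eEF1beta, CG31612 and snoRNA:Or-CD13 had 40.6%, 39.6% and 33.7%.

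The 9 coding exon members were an exception in base composition, with a median GC content of 55.4%. CG7272 was the tallest of them, with 930.0 at 239 bp (692.1 and 246.2 in replicates 2 and 3). CG10874 had 842.4 at 213 bp (519.0 and 355.3). Both lay in the first exon, within 200 bp after the start codon. The centriole gene Cep135 had 456.3 at 214 bp (263.8 and 198.0). Der-1, of endoplasmic reticulum associated degradation, had 251.4 (140.9 and 111.9), and RpS9, a protein of the small ribosomal subunit, had 217.0 (136.0 and 92.9). Of the 9, CG10874, Cep135, RpS9 and CG5068 held AGGGTAT within 50 bp of the summit, as printed above for the first 3. The 3 intergenic members were all past the end of short lncRNA genes, lncRNA:CR45251 (286.7), lncRNA:CR44276 (238.5) and lncRNA:CR45402 (142.9). The only one in a 3′ UTR, at asRNA:CR45714 (227.1), was in that of Hayan, read on the other strand.

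Non-coding genes were nearest to 58 members. A coding gene was nearest to 77.3% of members, 92.0% of upstream peaks, 82.5% of the peaks farther from a TSS and 86.7% of all peaks. At divergent pairs it was 99.8%. The rule leaves out pairs of coding genes only, from the upstream peaks as well as from the members. Its effect on these shares was not tested. Of all 18277 genes and of the 13968 coding ones the same share, 1.32%, had a member. The names of 40 began with lncRNA and of 9 with asRNA, and the small RNA genes had 2 at snoRNAs, 2 at tRNAs and 1 at 7SK snRNA, the RNA that holds the elongation factor P-TEFb inactive. The median signal was 226.2 at non-coding and 187.3 at coding genes. Of the 58, 20 lay inside a coding gene and 13 within 500 bp of a coding TSS, in 11 cases upstream of it. Such a summit is both downstream of the TSS of the RNA gene and in the promoter region of its neighbour. After lncRNA:CR45677 the tallest exon members of non-coding genes were asRNA:CR45928 (1210.0, with 805.8 and 416.6 in replicates 2 and 3), lncRNA:CR44917 (1176, with 687.6 and 493.3), lncRNA:CR31840 (767.4, with 486.1 and 278.9) and lncRNA:CR44149 (761.8, with 497.7 and 273.6). The summit at asRNA:CR45928 was also 108 bp upstream of eIF6, and that at lncRNA:CR44149 was 151 bp upstream of brwl.

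Internal TSSs, those with another start of the same gene upstream, had 104 of the members (40.8%), beside 31.6% of all peaks. The share was 32.5% of upstream peaks, 33.9% of those farther from a TSS and 13.4% of those at divergent pairs. With divergent pairs kept, 119 of 369 downstream summits (32.2%) were at internal TSSs, near the share of all peaks. Signal was alike at internal and other member TSSs, with medians of 200.6 and 198.2. So was the share with a summit in both libraries, at 80.8% and 80.1%. In 23 cases (9.02%) a further peak lay within 500 bp upstream of the same TSS, and 18 of the 23 members were lower than it. At CG1888 the member had 150.8 and the upstream peak 1049.9, and at Ptp36E the member was the taller, with 369.1 against 330.7. Both were chosen after their values were seen. A TSS of another gene lay within 500 bp of 36 members.

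At 14 genes there were 2 members. In 10 genes both were downstream of the same TSS, and then the summits stood 199 to 217 bp apart. The taller of each such pair had 1.49 to 4.97 times the signal of the other. At bowl the summits at 281 and 481 bp had 791.5 and 455.2. At vkg the one at 318 bp had 681.6 and the one at 116 bp 163.8. At CG7272 the second was at 439 bp, with 187.3, of which 147.0 came in replicate 2 and 16.4 in replicate 3. CG10874 (842.4 and 347.3), r (488.9 and 201.3), lncRNA:CR44758 (597.4 and 400.5), dl (448.8 and 117.5), mei-W68 (383.1 and 161.2), CG9775 (247.2 and 160.3) and Acsl (204.7 and 128.4) had the same layout. The gene r encodes enzymes of pyrimidine synthesis, dl the NF-κB factor Dorsal, and mei-W68 the Spo11 protein of meiotic breaks. At the other 4 genes, Eip75B, if, CG18622 and ph-p, the 2 members were at different TSSs.

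This spacing ran through the whole list. No summit of the 4309 lay closer than 199 bp to the next one, and 520 (12.1%) had a neighbour 190 to 220 bp away but 86 (2.00%) one at over 220 to 500 bp. Among the members 40 (15.7%) had a neighbour at 190 to 220 bp and 2 at over 220 to 500 bp. These bounds were set after the gaps were seen. Of the 40, 25 were lower than the neighbour, and for 20 the neighbour was no member at the same TSS. They were found in both libraries in 31 cases (77.5%), and the other 215 members in 174 (80.9%). The smallest gap that the authors' peak calling allowed is not given in the sources used here, so a pair of summits about 200 bp apart cannot be told apart from 1 site listed at 2 summits. The counts of members, of genes with 2 members and of these gaps carry that limit.

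Members lay at genes of many functions, and from 0% to 9.09% of the genes of a listed class had one. Over all 18277 genes, 241 (1.32%) had a member. Of 88 cytoplasmic ribosomal protein genes 6 did (6.82%), and 62 of the 88 had a D19B summit of any kind within 500 bp of a TSS. That count was 2359 of all 18277 genes, 24 of 55 genes of RNA-binding regulators and 25 of 89 chromatin and insulator genes. It was 26 of 134 developmental transcription factor genes, 29 of 103 cytoskeleton and adhesion genes and 23 of 110 signalling genes. All 6 members at ribosomal protein genes were close to the start, between 17 bp (RpL9) and 58 bp (RpL26), and none was tall. After RpS9 the highest were RpL26 with 189.6 (131.2 in replicate 2, no summit in replicate 3) and RpL30 with 180.4 (124.7 and 43.9). RpL9, RpL12 and RpL37-1 had 179.0, 160.6 and 140.4. No member was found among 73 mitochondrial ribosomal protein genes, and 14 of them had a D19B summit of any kind within 500 bp of a TSS. A list of this size can hold none at the 1.32% of all genes. Of 84 translation factor and tRNA synthetase genes 2 had one, eEF1beta and eEF5 (174.6), and of 87 respiratory chain and ATP synthase genes also 2, COX7AL2 (215.3) and ND-B22 (147.4).

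Among 134 developmental transcription factor genes 6 had a member (4.48%). The tallest were at dl, where the peak of 448.8 had 333.7 in replicate 2 and 115.4 in replicate 3, and at Eip75B, an ecdysone-induced nuclear receptor gene. The latter had 442.7 at 14 bp (265.5 and 158.6) and a further member of 192.2 at another TSS. The others were da, the GATA cofactor gene ush (196.8), the Hedgehog pathway factor gene ci (168.0) and Mitf (137.2). Of 89 chromatin and insulator genes 6 had one (6.74%), led by the Polycomb gene ph-p (486.3, with a second member of 292.5) and by Trl, which encodes GAGA factor (425.2, with 276.9 and 135.4). His3.3B had 151.8, ph-d 150.5, the CBP gene nej 135.1 and lolal 124.1. Polycomb and trithorax class genes both occur among these 6.

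Of 110 signalling genes 5 had a member, and after Mer came the phosphatase gene Ptp4E (255.2, with 159.4 and 100.1), the kinase gene Pdk1 (149.3), Stat92E (145.8) and the Wnt receptor gene fz (130.2). Of 55 genes of RNA-binding regulators 5 had one (9.09%), with the sex-determination splicing factor gene Sxl at 302.5 (183.9 and 102.4), Hrb27C at 202.2 (156.6 and 31.3), pAbp at 148.6, smg at 138.9 and mub at 134.6. Of 103 cytoskeleton and adhesion genes 5 had one, vkg and dlg1 as above, the myosin light chain gene sqh (277.2, with 185.9 and 86.1), the integrin gene if (156.4 and 132.4 at 2 TSSs) and Nrg (120.9). One of 61 cell cycle genes had one, the E2F partner gene Dp (296.4, with 210.5 and 79.0). There was none among 22 genes of zinc-finger proteins with a ZAD domain, 29 heat shock and chaperone genes and 15 clock genes. Lists this short can hold none at the 1.32% of all genes. A D19B summit of any kind lay within 500 bp of a TSS at 6, 8 and 3 of their genes. Of 861 small non-coding RNA genes 5 had one (0.581%). After snoRNA:Or-CD13 these were a snoRNA gene on 2R, FBgn0263459 (672.4, with 455.4 and 214.6) and tRNA:Val-CAC-2-5 (253.1, with 191.3 and 47.4). No share of a list was tested.

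The DNA under the members was less rich in A and T than that under other D19B peaks but richer than its surroundings. Windows of the summit base and 50 bp on either side had a median GC content of 37.6% (quartiles 31.7 and 44.1), beside 32.7% for all peaks and for upstream peaks. Windows of the same size 250 bp downstream of 15944 TSSs that meet the rule had 46.5%. In steps of 25 bp the mean GC content at the summit was 37.5%, with 41.3% at 250 bp before and 43.6% at 250 bp after it in the direction of the gene. By class the median was 39.6% in 5′ UTRs, 34.7% in introns and 36.6% in other exons.

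**Figure D4:**
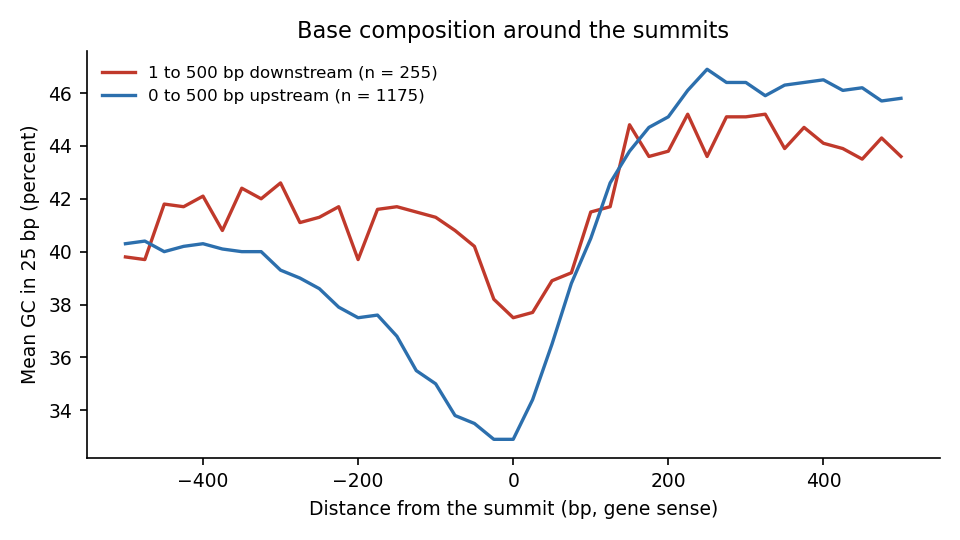
Mean GC content in 25 bp windows (y axis, percent) by distance from the summit in gene direction (x axis, bp), for the 255 members (red) and the 1175 upstream peaks (blue). Members have their minimum of 37.5% at the summit and 45.2% at 225 bp after it.

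Words were searched on both strands in the same windows. ACAGGGTA, known from earlier results of these data, was in 4 members (1.57%), beside 2.97% of all peaks, 1.79% of upstream peaks and 0.132% of the windows 250 bp downstream of TSSs. The share rested on few peaks, and it was 2 of 284 (0.704%) when replicate 2 alone ranked the regions and 7 of 235 (2.98%) with replicate 3 alone. The 4 were Cep135, mael, lncRNA:CR43641 and 1 on the arm whose sequence is not printed. The piRNA pathway gene mael had a signal of 247.1 at 488 bp, with 118.8 and 120.2 in replicates 2 and 3. The shorter AGGGTAT, chosen after the data were seen, was in 20 members (7.84%, 95% interval 4.86 to 11.9). That is near the 7.89% of all peaks, and 0 of the 255 windows 500 bp away from the same summits and 0.715% of the TSS windows had it. AGGGTA, which both words contain and which was also chosen after the data were seen, was in 27 members (10.6%), in 11.2% of all peaks, in 3 windows 500 bp away (1.18%) and in 1.95% of the TSS windows.

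The 20 copies of AGGGTAT lay 1 to 47 bp from the summit, with a median of 23.5 bp, and 12 of them within 25 bp. On the gene's own strand were 5 copies. Over the 5 steps of 100 bp from the TSS, 5 of 76, 1 of 48, 7 of 33, 2 of 45 and 5 of 53 members had the word. By class it was in 4 of 9 coding exon members, 8 of 86 intron members (9.30%) and 6 of 114 in 5′ UTRs (5.26%). Of the 63 tallest members 12 held AGGGTA (19%), and of the next 64, 64 and 64 by height 9.38%, 4.69% and 9.38%. All peaks, parted into 4 sets by height in the same way, had 12.4%, 10.9%, 10.8% and 10.6%, and the members' intervals overlap (10.2 to 30.9 in the first and 0.977 to 13.1 in the third).

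The signal of members with AGGGTAT was also compared between the libraries, a split made after the data were seen. The 18 found in both had a median of 114.7 in replicate 2 and 102.7 in replicate 3, with a median ratio of 1.46 (quartiles 1.23 and 2.41). The 187 without it had 141.3 and 71.7, with a ratio of 1.99 (quartiles 1.48 and 2.68). The quartile ranges overlap, and over all peaks the ratios were nearer, at 1.80 with and 1.92 without the word. Upstream peaks had 1.84 with and 2.01 without it, and peaks farther from a TSS 1.73 and 1.87. At divergent pairs the order was the other way, with 2.03 for 8 peaks with the word and 1.91 without it. The 23 members with TATAAA had a ratio of 2.35 and the 182 without it 1.86, beside 1.96 and 1.89 over all peaks. When each library alone ranked the regions, AGGGTAT was in 5.99% of the downstream peaks of replicate 2 and in 9.79% of those of replicate 3, with overlapping intervals (3.53 to 9.41 and 6.31 to 14.3). This was not tested.

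TATAAA, the TATA box word, was in 28 members (11.0%, 95% interval 7.42 to 15.5), about as often as in the windows 500 bp away (12.2%). It was in 22.5% of all peaks, 24.0% of upstream peaks and 8.12% of the TSS windows. TATCGATA, a word of BEAF-32 and DREF sites, was in 0 members (upper limit 1.44%) and in 0.998% of all peaks. CGATA was in 13.3% of members and of all peaks. GAGAG, the core of GAGA factor sites, was in 7.84% of members, 8.73% of all peaks and 11.2% of the TSS windows, and in 4.93% and 6.38% of the downstream peaks of replicates 2 and 3 alone. Windows 500 bp away held it more often, in 14.1% for the members and 14.4% for all peaks. The E-box CAGCTG was in 12 members (4.71%), in 2.74% of all peaks and in 4.82% of the TSS windows. CAGGTAG, a word of the early factor Zelda, was in 2 members and in 0.557% of all peaks. The repeat CACACACA was in 4 members (1.57%) and in 0.719% of all peaks, the initiator piece TCAGT in 32 (12.5%) and 15.8%, and the motif GGTCACACT in 0 (upper limit 1.44%) and 0.232%. In the TSS windows the last 4 words were found in 0.652%, 3.42%, 15% and 0.0314%. Windows 500 bp away held CACACACA in 4.71% for the members and 4.34% for all peaks. AAGTACAC, picked after the data were seen, was in 7 members (2.75%), beside 0.719% of all peaks and 0.376% of the TSS windows, and in 2.11% and 1.70% of the downstream peaks of replicates 2 and 3 alone. In those single-library lists TATCGATA was in 0.352% and 0.426%, and CAGGTAG in 0.704% and 0.426%. A match to a word is not a binding site.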

How the data were processed

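The 2 libraries are 1 group of biological replicates, numbered 2 and 3 in the labels, and where a label does not say that they came from separate collections their spread may be technical. Per the deposited file records, the authors listed 30000 regions per library and for both together, and an irreproducible discovery rate (IDR) step gave the 4309 peaks used here. The signal and the −log10 q of each region are the authors' deposited values, not scaled between libraries. Which aligner, peak caller and IDR threshold were used is not given in the sources used here, and read depth is unknown from these lists. The control library is not analysed here. The dm3 lists were not used, since no dm3 annotation was at hand.

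Summits (region start plus offset) were placed on the release 6 assembly with Ensembl release 115 genes (FlyBase 6.54). All listed dm6 regions lay within its arms. A summit matched a library summit within 100 bp. Classes took the order 5′ UTR, coding exon and 3′ UTR, then exons of non-coding transcripts, introns and intergenic, over all transcripts. Words and GC content used 101 bp windows. Flank windows lay 500 bp away. Bases and TSS windows for comparison met the same rule on distance and divergent pairs. Python 3.11.15, numpy 2.4.6, pandas 2.3.3, scipy 1.17.1 and matplotlib 3.10.9 were used, and the placing, matching and word search were tested on simulated data. Intervals are 95% Clopper-Pearson and cover counting error only. 

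Genes named are those of the 20 tallest members, the 3 nearest each limit on both sides, the 3 tallest per gene list, the 5 tallest per class other than the largest and with a summit in only 1 library, those with 2 members, and the ACAGGGTA members. Other names are said to be chosen after their values were seen or complete a list. The members, the 14 gene lists and ACAGGGTA were chosen with earlier results of these data known, and 2 ribosomal names were added to a list later. Sequences of arm 2R are not printed.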

Additional observations from a re-analysis of the deposited data

How the results depend on the processing

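Of 120 alternatives over 12 results, 84 kept within the limits set for a change and 36 did not. The limits were 1.5 times for the number, the 95% interval for a share, and the SD between libraries for a median. That SD was 0 for GC content, so any shift counted. The number of members was 128 in the 2154 tallest peaks, 142 with a 250 bp limit and 514 with 1000 bp. Their share became 3.3% and 11.9% with those limits, 8.56% with divergent pairs kept and 4.66% with coding TSSs only. Median signal was 71.7 to 118.9 with one library left out, which scales the list differently, and 301.7 in the 2154 tallest. A summit in both libraries was found for 69.0% to 86.8% with one library left out, 90.6% in the 2154 tallest, 66.3% with a 50 bp match and 88.2% with 250 bp. With one library left out the peaks come from the other. This share and the next then depend only on the library left out. The same TSS in both was found for 61.6% to 74.9% with one library left out, 79.7% in the 2154 tallest, 62.0% and 79.6% with limits of 250 and 1000 bp, and 59.6% with a 50 bp match. Introns held 19% and 56.0% with those limits. Internal TSSs held 34.0% to 37.7% with one library left out, 32.2% with divergent pairs kept and 50.2% with coding TSSs only. A further upstream peak was present for 20.2% at 1000 bp. TATAAA was in 18.3% at 1000 bp and in 6.27% and 22.4% of windows with 25 and 100 bp on either side of the summit. AGGGTAT, added later, was in 3.92% and 12.9% of such windows. Wider windows hold more words by construction. Median GC content was 34.7% in the 2154 tallest, 38.6% and 34.7% with the 250 and 1000 bp limits, 36.6% with divergent pairs kept or with pairs up to 1000 bp left out, and 37.3% and 38.3% in such windows. The cause of the other shifts was not tested.

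No paired analysis was possible because there is 1 group. Fragments of 200 to 800 bp limit how well a summit can be placed. Peak lists give no read depth, so how deep each library was read was not tested. With 2 libraries of 1 group no test over samples was run, and shares describe these lists only.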
